A study of Mus musculus with 12 samples.

Results

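The retinoid receptor, binding protein and target genes Rara, Rarb, Rarg, Rxra, Crabp1, Crabp2, Stra6, Dhrs3 and Cyp26a1 were followed by RNA-seq in mouse embryonic stem (mES) cells whose BRG1 protein was lowered in steps. They were picked by symbol for their place in the retinoic acid pathway, with earlier results of these data known. All 9 were present among the 24421 genes counted. Every group consisted of C57BL/6J (B6 in the labels) mES cells kept in 2i and LIF that carried a Brg1 dTag knock-in, which fuses an FKBP12-F36V degron to BRG1, the ATPase of the mSWI/SNF chromatin remodeler. The degrader dTAG13, which brings the tagged protein to the proteasome, was given at 0.3, 1, 3, 10 or 100 nM in fresh medium for 24 h. The control was the same line without degrader (0 nM), so the knock-in allele was present in all groups and no untagged cells were measured here. Knock-in colonies were grown from single cells, how many of them gave the cells used here is not stated in the sources, and the medium held serum, with no retinoid named among its additions. Each of the 6 conditions had 2 libraries, 12 in all. The labels call these replicates without saying whether they were separate cultures, and the study describes expression values from these doses as coming from independent experiments. The p-values measure the spread between such libraries.

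Retinoic acid is made from vitamin A. STRA6 carries retinol across the cell membrane, retinol is oxidised to retinaldehyde and then, by the ALDH1A enzymes, to retinoic acid, DHRS3 turns retinaldehyde back into retinol, and CYP26 enzymes break retinoic acid down. Inside the cell CRABP1 and CRABP2 bind retinoic acid, and CRABP2 hands it to the retinoic acid receptors RARα, RARβ and RARγ, which bind DNA as heterodimers with retinoid X receptors such as RXRα. Without ligand these heterodimers hold corepressors, and with ligand they take up coactivators. Rarb, Cyp26a1, Stra6, Dhrs3 and Crabp2 are among the genes that added retinoic acid is known to raise in embryonic stem or embryonal carcinoma cells, which makes them common readouts of the pathway.

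Receptor heterodimers bind direct repeats of a core motif set apart by spacers of 1, 2 or 5 bases. The core motif searched was AGGTCA, for which the search also took AGTTCA, the form with G first that reads GGGTCA, and likewise GGTTCA. Start-site windows of 300 bases, 250 before and 50 after a RefSeq start (build GRCm38.p6, the mm10 assembly), were given for 8 of the 9 members, in 18 windows. Crabp2 had no window. Both strands were searched, and a window could have held motifs that overlap each other. A repeat with a spacer of 5 was found in windows of 2 members, Rarb and Cyp26a1, against 32 of all 32851 windows (0.0974%). Repeats with spacers of 1 and 2 were found in 0 members, against 0.222% and 0.268% of all windows. The stretches around these 2 repeats are shown because such elements are the textbook binding sites through which retinoic acid raises both genes. Core motifs are in capitals, and each stretch is written 5′ to 3′ on the strand of its gene. They lie on chr14:16575507-16575535 (minus strand, first repeat base at -53 from the Rarb start) and chr19:37697770-37697798 (plus strand, first repeat base at -32 from the Cyp26a1 start, the repeat itself reading on the minus strand).
Rarb: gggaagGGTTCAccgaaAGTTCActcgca
Cyp26a1: taaagaTGAACTttgggTGAACTaatttg

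The windows of Rarg and Rxra, the only members called below, held none of these repeats. The 250 bases before a start site are shown for each, on chr15:102257523-102257772 (Rarg, minus strand) and chr2:27676951-27677200 (Rxra, plus strand). The Rxra window at this start was 83% G and C with an observed-to-expected CpG ratio of 1.08, the highest of the 18 windows, against medians of 52.7% and 0.384 over all windows. The other Rxra window (chr2:27709042-27709341) was 54.3% G and C with a CpG ratio of 0.0459, the lowest of the 18. The Rarg window at the start shown was 70.0% G and C with a CpG ratio of 0.335, and the other Rarg window (chr15:102246451-102246750) 51.7% with 0.504.
Rarg: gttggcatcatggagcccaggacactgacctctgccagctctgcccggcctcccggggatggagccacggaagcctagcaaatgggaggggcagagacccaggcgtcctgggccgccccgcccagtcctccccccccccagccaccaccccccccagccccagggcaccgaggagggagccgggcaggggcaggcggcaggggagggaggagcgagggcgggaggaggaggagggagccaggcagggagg
Rxra: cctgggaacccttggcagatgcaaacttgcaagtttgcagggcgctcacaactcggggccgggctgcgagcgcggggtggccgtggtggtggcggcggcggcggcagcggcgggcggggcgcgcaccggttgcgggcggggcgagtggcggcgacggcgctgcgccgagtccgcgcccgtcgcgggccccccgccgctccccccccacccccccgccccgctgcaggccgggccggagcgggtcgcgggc

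Libraries held 4663484 to 6375582 counts. Transcripts of Smarca4, the gene of BRG1, stood at 63.5 to 71.3 RPKM (reads per kilobase of exon, scaled to library size with TMM factors) in the 12 libraries. The 100 nM libraries were the highest, at 71.3 and 71.2 RPKM. Their log2 fold change against 0 nM was 0.16 (adjusted p = 0.0389, edgeR's quasi-likelihood test), under 1.5-fold, and 0.08 to 0.21 in alternative settings. The degrader acts on the protein, so the Smarca4 transcript level does not check the labels. The 8 pluripotency markers examined were counted in every library and summed to 2060 to 2081 RPKM at 0 nM and 1829 to 1872 RPKM at 100 nM. Library numbers in the column headers run in one series for 0, 1, 10 and 100 nM and in another for 0.3 and 3 nM, so that in the comparisons of 0.3 and 3 nM with 0 nM the dose and the library series cannot be told apart. Steps within a series (10 against 1 nM, 100 against 10 nM and 3 against 0.3 nM) were therefore tested too.

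The members fell into a group of well-counted genes and a group of genes near the limit of counting. Averaged over the 12 libraries and per length of exon, Rarg was the highest at 32.9 RPKM, followed by Rara at 9.87, Crabp1 at 5.22, Rxra at 2.20 and Crabp2 at 1.16 RPKM. Stra6 (0.239), Cyp26a1 (0.202), Dhrs3 (0.147) and Rarb (0.128 RPKM) lay below the minimum of 1 RPKM that a gene needed to enter the main fit. These 4 genes were tested in a second fit of all 23204 genes with a count. A gene was called when its adjusted p (edgeR's quasi-likelihood test, Benjamini-Hochberg over all genes of the fit) was under 0.05 and its fold change over 1.5. In these bulk libraries fewer cells expressing a gene and less RNA per cell cannot be told apart.

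**Figure D1:**
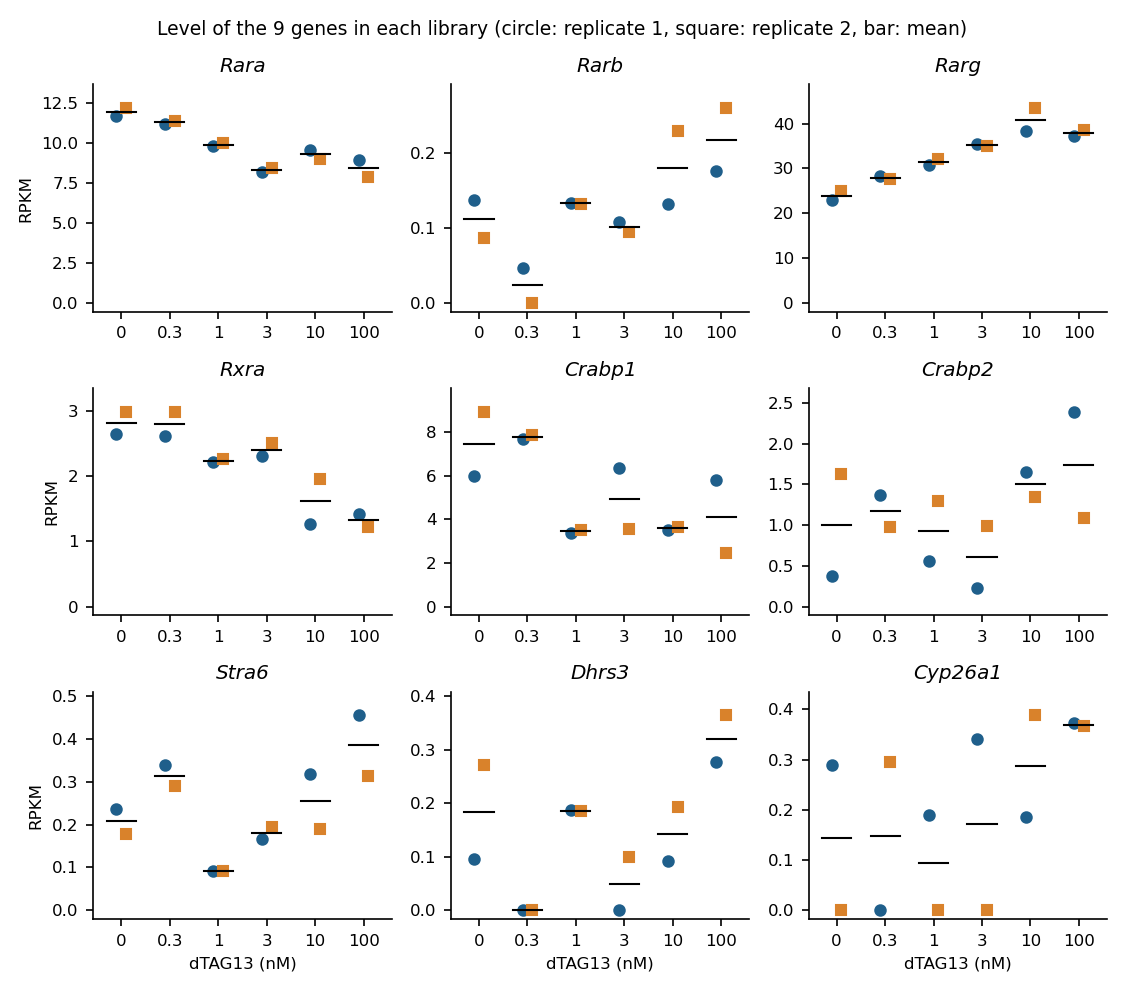
Level of each member in RPKM (linear vertical axes) at each dTAG13 dose (nM), with circles for replicate 1, squares for replicate 2 and bars for the mean of both. Rarg lay at 22.9 and 24.9 RPKM at 0 nM and above both values at all 5 doses, while Rara and Rxra were lower at 100 nM and the 4 panels of Rarb, Stra6, Dhrs3 and Cyp26a1 span less than 0.5 RPKM.

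Of the 9 members, 1 was called higher (Rarg) and 1 lower (Rxra) at 100 nM, and the same genes were called at 10 nM. Over all genes of the main fit 4.37% were called higher and 6.83% lower at 100 nM. The shares for 10 nM were 3.01% higher and 4.92% lower. At 0.3, 1 and 3 nM 0 members were called by edgeR's quasi-likelihood test, where 0.0176%, 0.914% and 3.90% of all genes were called in either direction. The counts of members with an unadjusted p under 0.05 at these doses are 1 (Rarg), 3 (Rara, Rarg and Crabp1) and 2 (Rara and Rarg), beside 7.55%, 13.5% and 21.8% of all genes of the main fit. The 3 steps within a library series gave 0 called members by the same test, with an unadjusted p under 0.05 for 2 (Rarg and Rxra), 0 and 2 (Rara and Rarg) members, beside 18.4%, 11.9% and 18.7% of all genes. The shares of all genes called were 2.54% for 10 against 1 nM, 0.984% for 100 against 10 nM and 1.94% for 3 against 0.3 nM.

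Rarg, which encodes RARγ, the main RAR of these cells by transcript level, rose with dose. Its gene lies on chr15:102234938-102257522 (minus strand) in mm10. It had 454 and 521 counts without degrader, 545 and 535 with 0.3 nM, 621 and 657 with 1 nM, 595 and 667 with 3 nM, 788 and 856 with 10 nM, and 764 and 804 with 100 nM. The corresponding means were 23.9 ± 1.42, 28.0 ± 0.461, 31.5 ± 1.01, 35.2 ± 0.444, 40.9 ± 3.66 and 37.9 ± 1.03 RPKM (SD, n = 2 each). In RPKM the libraries of every dose lay above both 0 nM libraries, and up to 10 nM each dose also lay above the dose before it. Each of these steps between neighbouring doses crosses the library series, so dose and series cannot be told apart in it. The libraries of 10 and 100 nM overlapped, and the highest library of all was a 10 nM library.

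The log2 fold change of Rarg against 0 nM was 0.22 ± 0.082 with 0.3 nM (SE throughout, adjusted p = 0.502), 0.39 ± 0.081 with 1 nM (0.0076) and 0.56 ± 0.081 with 3 nM (4.27e-05), all by edgeR's quasi-likelihood test. It reached 0.77 ± 0.080 with 10 nM (adjusted p = 8.99e-08) and 0.66 ± 0.080 with 100 nM (5.41e-07), which put the mean at 171% and 158% of the 0 nM level. Within a library series the step from 1 to 10 nM was 0.38 (edgeR adjusted p = 0.00265) and that from 0.3 to 3 nM 0.33 (0.0131), both under 1.5-fold. The step from 10 to 100 nM was -0.11 (edgeR adjusted p = 0.658). With scaling factors taken over every gene, the rise at 100 nM was 0.58 (edgeR adjusted p = 3.98e-06), just short of the 1.5-fold minimum.

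Rara, which encodes RARα, was lower under the degrader, by less than 1.5-fold. Its gene lies on chr11:98937696-98974942 (plus strand). It had 281 and 310 counts without degrader, 263 and 268 with 0.3 nM, 241 and 248 with 1 nM, 167 and 196 with 3 nM, 239 and 216 with 10 nM, and 224 and 199 with 100 nM. Means went from 11.9 ± 0.375 RPKM without degrader to 9.90 ± 0.124 with 1 nM, 8.32 ± 0.165 with 3 nM, 9.30 ± 0.376 with 10 nM and 8.43 ± 0.780 with 100 nM (SD, n = 2). At all 5 doses both libraries lay under both 0 nM libraries in RPKM, and the lowest library of all was a 100 nM library.

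At 3, 10 and 100 nM Rara passed the adjusted p but not the fold minimum. The log2 fold changes were -0.52 ± 0.11 (adjusted p = 0.00207, edgeR's quasi-likelihood test), -0.36 ± 0.10 (0.0155) and -0.50 ± 0.10 (0.000705), so that 70.5% of the 0 nM level was left at 100 nM. By adjusted p alone 5.25%, 10.1% and 13.3% of all genes of the main fit were lower at these doses. At 0.3 and 1 nM the changes of -0.08 and -0.27 did not pass (edgeR adjusted p = 0.928 and 0.209). Within a series, the step from 0.3 to 3 nM was -0.44 (edgeR adjusted p = 0.0143), while the step from 1 to 10 nM was -0.09 (0.719).

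Rarb, which encodes RARβ and carries the repeat shown above, stayed at the limit of counting. Its gene lies on chr14:16430840-17082331 (minus strand). The 0 nM libraries held 3 and 2 counts, the 0.3 nM libraries 1 and 0, those of 1 nM 3 and 3, of 3 nM 2 and 2, of 10 nM 3 and 5, and of 100 nM 4 and 6. A count of 3 is worth 0.137 RPKM for Rarb in a library of average depth, and the highest library stood at 0.260 RPKM. The ratio of 100 to 0 nM was 1.97 with a counting interval (95%) of 0.613 to 7.34, and the adjusted p was 0.638 (edgeR's quasi-likelihood test, second fit). No change of Rarb was thus detected at this depth, and a rise of several-fold lies inside the interval.

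The makeup of the RAR transcripts is given here as shares of the summed RPKM of Rara, Rarb and Rarg. Rarg made up 66.5% ± 0.693 of RAR transcripts at 0 nM, 71.2% ± 0.482 with 0.3 nM, 75.8% ± 0.364 with 1 nM, 80.7% ± 0.484 with 3 nM, 81.1% ± 1.87 with 10 nM and 81.4% ± 1.67 with 100 nM (SD, n = 2). The share of Rara went from 33.2% ± 0.580 without degrader to 18.1% ± 1.79 with 100 nM, and that of Rarb lay between 0.0590% and 0.467%. In the single libraries the RPKM of Rarg divided by that of Rara was 1.96 and 2.04 without degrader, 2.52 and 2.43 with 0.3 nM, 3.13 and 3.22 with 1 nM, 4.33 and 4.14 with 3 nM, 4.01 and 4.82 with 10 nM, and 4.15 and 4.91 with 100 nM. This ratio does not depend on library scaling. The libraries of 0, 0.3, 1 and 3 nM were ordered without overlap, and those of 3, 10 and 100 nM overlapped. Neighbouring doses up to 3 nM belong to different library series, so dose and series cannot be told apart in those steps. Within a series, 1 nM lay above 0 nM and 3 nM above 0.3 nM. The summed level of the family went from 36.0 ± 1.76 RPKM without degrader to 50.4 ± 3.35 with 10 nM and 46.6 ± 0.307 with 100 nM. No test was run on these shares.

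**Figure D2:**
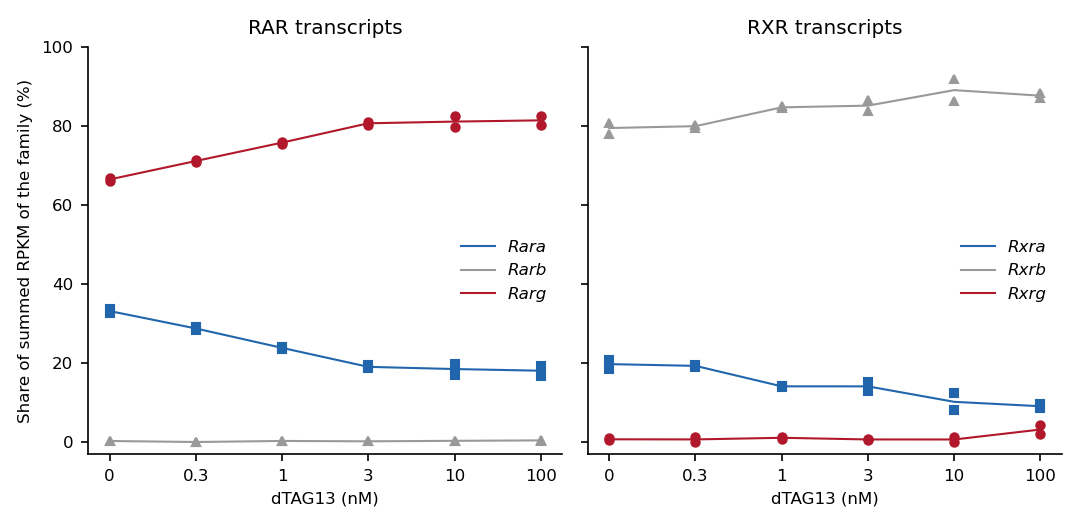
Share (%) of each transcript in the summed RPKM of the RAR family (left) and of the RXR family (right) at each dTAG13 dose (nM), with 1 point per library and lines through the means. The mean share of Rarg was 66.5% at 0 nM and 81.4% at 100 nM, that of Rara 33.2% and 18.1%, with little movement past 3 nM, and Rxra went from 19.8% to 9.11% of RXR transcripts.

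Rxra, which encodes the RXRα partner of the RARs, was the member with the largest called fold change. Its gene lies on chr2:27677201-27763319 (plus strand). Counts were 84 and 100 without degrader, 81 and 93 with 0.3 nM, 72 and 74 with 1 nM, 62 and 77 with 3 nM, 42 and 62 with 10 nM, and 47 and 41 with 100 nM. Mean levels were 2.81 ± 0.239 RPKM without degrader, 2.23 ± 0.0261 with 1 nM, 1.61 ± 0.487 with 10 nM and 1.32 ± 0.140 with 100 nM (SD, n = 2). The 0.3 nM libraries overlapped those of 0 nM, and all 8 libraries of 1 nM and above lay under both.

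Against 0 nM the log2 fold change of Rxra was -0.01 at 0.3 nM, -0.33 at 1 nM and -0.22 at 3 nM, none of which passed (edgeR adjusted p = 0.998, 0.491 and 0.560). It was -0.80 ± 0.21 with 10 nM (adjusted p = 0.00692, edgeR's quasi-likelihood test) and -1.08 ± 0.21 with 100 nM (0.000372), which left 57.5% and 47.2% of the 0 nM level. The call at 10 nM rested on single libraries, since the value was -0.52 without 10 nM replicate 1 (edgeR adjusted p = 0.138) and -0.72 without 0 nM replicate 2 (0.0745). The call at 100 nM held when each library was left out in turn, with values from -1.19 to -0.98. The steps from 1 to 10 nM (-0.47, edgeR adjusted p = 0.226) and from 10 to 100 nM (-0.28, 0.720) did not pass. Among the RXR transcripts Rxrb was the most abundant, with 79.5% ± 1.97 of the summed RPKM at 0 nM and 87.7% ± 0.873 with 100 nM, and its own log2 fold change at 100 nM was 0.18 ± 0.13 (edgeR adjusted p = 0.321).

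**Figure D3:**
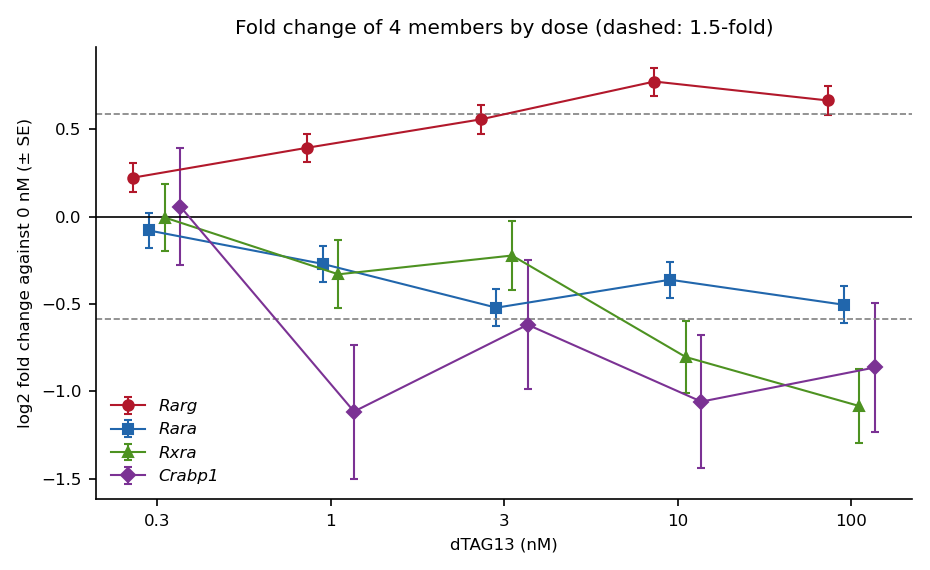
Log2 fold change against 0 nM (± SE) of Rarg, Rara, Rxra and Crabp1 at each dTAG13 dose (nM), from the fit over all 12 libraries, with dashed lines at 1.5-fold. Rarg climbed to 0.77 at 10 nM, Rara lay between -0.52 and -0.36 from 3 nM on, Rxra reached -1.08 at 100 nM and Crabp1 had errors up to 0.38. The 0.3 and 3 nM libraries belong to another library series than 0 nM.

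Crabp1, whose product binds retinoic acid in the cytoplasm, was lower at 1 nM and above in mean but did not pass the test at any dose. Its gene lies on chr9:54764748-54773110 (plus strand). Counts were 28 and 44 without degrader, 35 and 36 with 0.3 nM, 16 and 17 with 1 nM, 25 and 16 with 3 nM, 17 and 17 with 10 nM, and 28 and 12 with 100 nM. The 1 and 10 nM libraries lay close together, at 3.44 ± 0.121 and 3.58 ± 0.111 RPKM against 7.46 ± 2.07 RPKM without degrader, whereas the 3 and 100 nM libraries spread over 4.94 ± 1.96 and 4.11 ± 2.36 RPKM (SD, n = 2). The log2 fold changes at 1, 10 and 100 nM were -1.11 ± 0.38, -1.06 ± 0.38 and -0.86 ± 0.37 (adjusted p = 0.153, 0.0546 and 0.0935, edgeR's quasi-likelihood test). One library decided the 100 nM value, which was -1.60 (edgeR adjusted p = 0.0240) without 100 nM replicate 1 and -0.37 (0.595) without 100 nM replicate 2.

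Crabp2, which delivers retinoic acid to the RARs and is raised by it, had 1 to 13 counts per library. Its gene lies on chr3:87948693-87953372 (plus strand). Counts were 2 and 9 without degrader, 7 and 5 with 0.3 nM, 3 and 7 with 1 nM, 1 and 5 with 3 nM, 9 and 7 with 10 nM, and 13 and 6 with 100 nM. The replicates spread as widely as the doses, with 1.00 ± 0.881 RPKM without degrader and 1.74 ± 0.920 RPKM with 100 nM (SD, n = 2). The ratio of 100 to 0 nM was 1.70 (counting interval 0.769 to 3.96), with an adjusted p of 0.468 by edgeR's quasi-likelihood test.

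The retinol transporter gene Stra6 (chr9:58129088-58153997, plus strand) had 5 and 4 counts without degrader, 7 and 6 with 0.3 nM, 2 and 2 with 1 nM, 3 and 4 with 3 nM, 7 and 4 with 10 nM, and 10 and 7 with 100 nM. Its ratio of 100 to 0 nM was 1.86 (counting interval 0.784 to 4.73, edgeR adjusted p = 0.514). The retinaldehyde reductase gene Dhrs3 (chr4:144892827-144927645, plus strand) had 1 and 3 counts without degrader, 0 and 0 with 0.3 nM, 2 and 2 with 1 nM, 0 and 1 with 3 nM, 1 and 2 with 10 nM, and 3 and 4 with 100 nM. A count of 0 allows up to 3 counts, which for Dhrs3 is 0.287 RPKM in a library of average depth. Its ratio of 100 to 0 nM was 1.72 (counting interval 0.438 to 8.03, edgeR adjusted p = 0.772).

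Cyp26a1 (chr19:37697808-37701536, plus strand), which encodes the main enzyme of retinoic acid breakdown and is among its most responsive targets, had 3 and 0 counts without degrader, 0 and 3 with 0.3 nM, 2 and 0 with 1 nM, 3 and 0 with 3 nM, 2 and 4 with 10 nM, and 4 and 4 with 100 nM. A value of 0 in 1 replicate beside 2 or 3 counts in the other occurred at each dose up to 3 nM. The ratio of 100 to 0 nM was 2.63 (counting interval 0.630 to 15.4, adjusted p = 0.564 by edgeR's quasi-likelihood test in the second fit). For the 5 genes that added retinoic acid is known to raise (Rarb, Cyp26a1, Stra6, Dhrs3 and Crabp2), both the lowest and the highest library lay between 0 and 2.39 RPKM, the ratios of 100 to 0 nM lay between 1.70 and 2.63, and each counting interval included 1. These intervals do not cover the spread between replicates. On leaving out 1 library of 0 or 100 nM at a time, the log2 fold change lay between 0.09 and 2.12 for Crabp2 (lowest without 0 nM replicate 1, highest without 0 nM replicate 2) and between 0.23 and 1.63 for Dhrs3 (the same libraries). Those of Rarb and Stra6 moved by less than 1.5-fold. Dropping 0 nM replicate 2 put Cyp26a1 at 0.34, while dropping 0 nM replicate 1 left a control with 0 counts, for which no fold is given. None of these 5 genes passed the test in any of these fits (edgeR adjusted p of 0.191 or more).

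The rest of the retinoid pathway was followed with 46 further genes, of which 22 reached 1 RPKM. At 100 nM 6 of the 46 were called higher and 3 lower, or 19.6% of the list. Over all genes 11.2% were called in the main fit and 7.86% in the second fit. The list was chosen with earlier results of these data known, so its share above those of all genes is not independent evidence. The median log2 fold change of the 22 genes was 0.14, against 0.00 for all genes of the main fit. The 10 nM libraries gave 5 higher and 3 lower, those of 3 nM gave 2 of each, and those of 0.3 and 1 nM gave 0. At 10 nM 7.93% of all genes were called in the main fit and 4.84% in the second. At 3 nM 3.90% of all genes were called in the main fit, which held all the list genes called at that dose. The called genes came from different steps of the pathway. The counts by role at 100 nM given below stand beside the same 11.2% and 7.86% of all genes.

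Among 22 genes for synthesis, storage and transport, 1 was called higher and 2 lower at 100 nM. Aldh1a2, the chief retinoic acid synthesis enzyme of the early embryo, had 31 and 36 counts without degrader and 81 and 100 with 100 nM. Its level rose from 2.47 ± 0.167 to 6.57 ± 0.917 RPKM (SD, n = 2), with a log2 fold change of 1.41 ± 0.22 (adjusted p = 2.66e-05, edgeR's quasi-likelihood test). Dhrs4, which encodes a retinaldehyde reductase, fell from 10.1 ± 0.812 to 4.12 ± 0.388 RPKM, a log2 fold change of -1.29 ± 0.21 (edgeR adjusted p = 3.48e-05). Fabp5, a fatty acid binding protein that can also carry retinoic acid, fell from 27.7 ± 2.66 to 11.1 ± 2.18 RPKM, a log2 fold change of -1.31 ± 0.20 (edgeR adjusted p = 1.54e-05). At 10 nM the log2 fold changes against 0 nM were 1.03 for Aldh1a2, -1.42 for Dhrs4 and -1.14 for Fabp5 (edgeR adjusted p = 0.00214, 2.05e-05 and 0.000117).

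Of the CYP26 enzymes other than Cyp26a1, Cyp26b1 was called higher and Cyp26c1 was not called. Cyp26b1 had 3 and 3 counts without degrader, 3 and 1 with 0.3 nM, 4 and 7 with 1 nM, 8 and 11 with 3 nM, 13 and 16 with 10 nM, and 15 and 14 with 100 nM. Its level was 0.103 ± 0.00394 RPKM without degrader and 0.492 ± 0.0284 RPKM with 100 nM (SD, n = 2, adjusted p = 0.0109, edgeR's quasi-likelihood test in the second fit). Because 0 nM lay at the floor of 3 counts, the size of this rise is poorly known. In a fit of the 0 and 100 nM libraries alone the call was lost (edgeR adjusted p = 0.0575). The adjusted p was 0.0897 with DESeq2 and between 0.0711 and 0.0988 in edgeR without 100 nM replicate 1 or without either 0 nM library.

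Of 6 coregulators, 2 were called higher at 100 nM and 0 lower. Ncoa3, a coactivator that nuclear receptors bind when they hold ligand, rose from 52.8 ± 0.519 RPKM without degrader to 99.7 ± 0.695 with 10 nM and 88.9 ± 1.94 with 100 nM (SD, n = 2). The log2 fold change of Ncoa3 at 100 nM was 0.75 ± 0.052 (edgeR adjusted p = 2.91e-11), and it was also called at 3 nM (0.74, 3.83e-10). Ncoa1, a coactivator of the same family, rose from 3.64 ± 0.719 to 7.48 ± 0.298 RPKM, a log2 fold change of 1.04 ± 0.12 (edgeR adjusted p = 4.49e-07). Ncoa1 was called at 3 nM as well (0.60, edgeR adjusted p = 0.00365). For both genes the 3 nM libraries belong to another library series than 0 nM. The third member of that family, Ncoa2, stood at 0.10 ± 0.10 (edgeR adjusted p = 0.539).

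Of 14 genes listed because retinoic acid induces them in embryonic or carcinoma cells, 2 were called higher and 1 lower at 100 nM. The called genes thus did not move one way, and only 6 of the 14 reached 1 RPKM. Ret, which encodes a receptor tyrosine kinase, had 8 and 12 counts without degrader and 34 and 25 with 100 nM, a log2 fold change of 1.53 ± 0.42 (edgeR adjusted p = 0.00298, second fit). Cdx1, a homeobox gene of posterior patterning, fell from 31.8 ± 1.63 RPKM without degrader to 14.5 ± 1.19 with 10 nM and 9.41 ± 1.02 with 100 nM (SD, n = 2). The log2 fold change of Cdx1 at 100 nM was -1.76 ± 0.12 (edgeR adjusted p = 4.17e-11), and it was the only gene of the wider list called in the step from 10 to 100 nM (-0.62, 0.0102). The call of Ret was lost in DESeq2 (adjusted p = 0.0859) and in edgeR on the 0 and 100 nM libraries alone (0.0699). Without 100 nM replicate 1 or 0 nM replicate 1 Ret had an edgeR adjusted p of 0.103 and 0.0805.

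**Figure D4:**
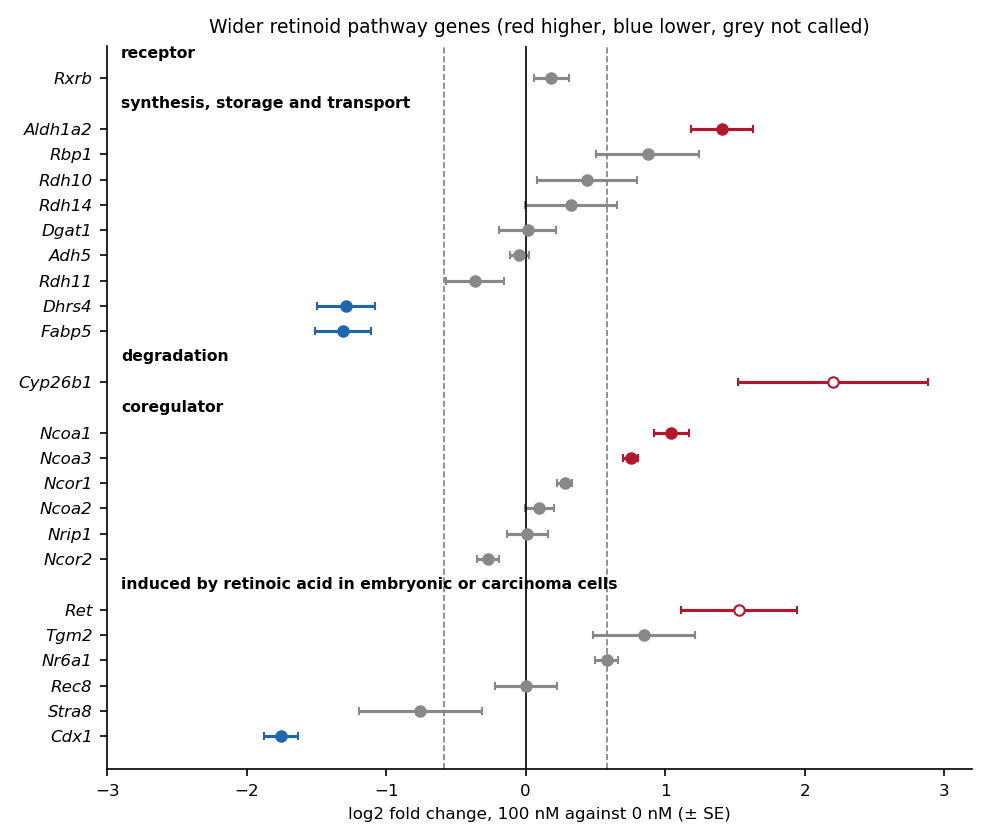
Log2 fold change at 100 against 0 nM (± SE, horizontal axis) of 21 further retinoid pathway genes with at least 1 RPKM (filled points) and of Cyp26b1 and Ret from the second fit (open points), grouped by role, with dashed lines at 1.5-fold. The 5 genes shown that were called higher are red and the 3 called lower are blue, and both colours appear among the genes for synthesis, storage and transport and among the genes induced by retinoic acid.

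Summed levels of markers of other cell types moved over the same doses. At 100 nM 11.2% of all genes were called in the main fit and 7.86% in the second fit, in either direction. The summed level of 6 neural markers was 4.98 to 5.93 RPKM at 0 nM and 10.4 to 10.6 RPKM at 100 nM, with 2 of 6 called higher and 2 at 0 in at least 1 library. That of 6 trophectoderm markers was 4.96 to 6.41 and 11.3 to 11.4 RPKM, with 2 of 6 called higher and 3 at 0 in at least 1 library. Single markers did not all follow these 2 sums. The log2 fold change at 100 nM was -1.23 for the trophectoderm marker Gata3 (edgeR adjusted p = 0.0919) and 0.13 for the neural marker Sox1 (0.642). Sums for 8 primitive endoderm markers (1.92 to 2.48 and 2.81 to 3.14 RPKM, 1 called higher), 6 mesoderm markers (14.4 to 18.3 and 20.8 to 21.5 RPKM, 0 called) and 6 fibroblast markers (1.16 to 1.40 and 1.67 to 2.22 RPKM, 0 called) are given in the same order of doses. The 7 markers of 2-cell-like cells summed to 3.65 to 5.54 and 2.65 to 3.22 RPKM, with 0 called. Of the pluripotency markers, 1 of 8 was called, and it was lower. Their part in the levels of the members and of the wider list was not tested.

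The genes whose pattern over the 12 libraries was most like that of the called members were found by Pearson's r of log2(RPKM + 0.1) over the genes of the main fit. For Rarg these were Cask, a membrane scaffold gene (r = 0.973), the coactivator gene Ncoa3 (r = 0.972) and Nanog, a transcription factor gene of pluripotency (r = 0.972). Nanog stood at 229 ± 2.81 RPKM without degrader and 329 ± 0.568 with 100 nM (SD, n = 2), with a log2 fold change of 0.52, under 1.5-fold (edgeR adjusted p = 1.79e-08). For Rxra they were Perp, a p53-regulated membrane protein gene (r = 0.969), Calca, the gene of calcitonin and its related peptide (r = 0.966), and Prkacb, a catalytic subunit gene of protein kinase A (r = 0.965). Perp and Calca had larger changes than Rxra, with log2 fold changes at 100 nM of -1.75 and -1.73 (edgeR adjusted p = 1.98e-05 and 9.35e-05), and Prkacb stood at -0.40 (0.0262). The 12 points are 6 doses in pairs, so these r values mostly describe the order of the doses.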

How the data were processed

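RNA-seq of 12 libraries was analysed. The authors trimmed reads with Trim Galore, aligned them to mm10 with HISAT2 and counted pairs on exons with featureCounts 2.0.1, without strand and without multi-mapped reads. The deposited values are raw counts per gene with exon lengths, and all 12 columns were used.

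Groups came from the labels. R 4.3.3 with edgeR 4.0.16 was used. The 11378 genes that reached 1 RPKM on average formed the main fit, with TMM factors of 0.947 to 1.06 over them. A second fit with the same scaling held the 23204 genes with at least 1 count. All 6 conditions were fitted together by the quasi-likelihood test, and a call took more than a 1.5-fold change together with an adjusted p below 0.05. The ribosomal RNA gene Rn45s took 10.5% to 19.4% of counts. Exact intervals (95%, conditional on summed counts) and the floor of 3 counts cover counting error only, since reads carried no molecular identifiers. Exons of the 9 members overlapped those of no other gene among the genes counted. Promoter sequences came from RefSeq. The steps were tested on simulated data.

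Named genes were the members, Smarca4, wider-list genes called at 100 nM and, for each called member, the 3 genes of highest r. Rxrb, Cyp26c1 and Ncoa2 were named after their values were seen. The wider list holds 1 gene whose own values are not reported here. The members and lists were chosen with earlier results of these data known. Alternatives covered test (DESeq2 1.42.0 among them), scaling, filter, libraries, block and motifs.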

Additional observations from a re-analysis of the deposited data

How the results depend on the processing

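Settings varied were the test (likelihood ratio, DESeq2), scaling (DESeq2 size factors, upper quartile, none, and TMM over every gene, chosen after seeing the data), filter (none, filterByExpr), libraries (the compared doses alone, the 8 of 0, 1, 10 and 100 nM, each left out in turn), the replicate block and the fold minimum. No member's or list gene's log2 fold change that was recomputed changed sign. Libraries of the same replicate number shared no strong shift between doses (correlations of same-numbered deviations from -0.0948 to 0.0927 over 15 pairs of doses). This cannot show whether the cultures were paired. With the replicate block every count of called members was as before (1 higher and 1 lower at 10 and 100 nM). The list genes called at 100 nM also kept their calls, while over all genes it gave 491 higher and 763 lower at 100 nM. Members called lower at 10 nM were 2 with the likelihood ratio test, no filter, the compared doses alone, TMM over every gene (Crabp1 added) or no fold minimum (Rara added). At 100 nM, no filter and TMM over every gene gave 0 higher, and 3 and 2 lower. Without the fold minimum 1 member was higher at 1 nM, 3 nM, 10 against 1 nM and 3 against 0.3 nM, 1 was lower at 3 nM and 3 against 0.3 nM, and 2 were lower at 100 nM. At 3 nM 1 was higher without scaling. Leaving out 1 library gave 0 to 1 higher at 3 nM (1 without 0 nM replicate 2), 0 to 2 lower at 10 nM (0 without 10 nM replicate 1 or 0 nM replicate 2, 2 without 0 nM replicate 1) and 1 to 3 lower at 100 nM (3 without 100 nM replicate 1). List genes higher at 10 nM were 3 with DESeq2 and 3 to 4 with 1 library left out (3 without 10 nM replicate 2 or either 0 nM library). With AGGTCA and its variant AGTTCA alone 1 member held a repeat with a spacer of 5. Over all genes 497 were higher and 777 lower at 100 nM, against 383 and 957 with TMM over every gene and 398 and 975 with no filter. The causes were not tested. Depth limits Rarb, Cyp26a1, Stra6, Dhrs3 and Crabp2.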
